A study of Mus musculus with 12 samples.

Results

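Mature enterocytes of small intestinal organoids were examined as the cells that carried the highest load of Fabp1, the abundant fatty acid-binding protein of absorptive cells. A cell was counted as a mature enterocyte when, per 10000 of its unique molecular identifiers (UMIs, each standing for 1 captured mRNA molecule), it held at least 50 UMIs of Fabp1. It also had to hold fewer than 10 UMIs of the goblet cell genes Fcgbp, Tff3, Muc2 and Agr2 together, fewer than 50 of the Paneth cell genes Defa17, Defa24, Defa30 and Lyz1 together, and fewer than 10 of the endocrine genes Chga and Chgb together. By this rule, 1275 of 11911 analyzed cells (10.7%) were mature enterocytes. Of the rest, 9599 cells met neither the Fabp1 threshold nor a secretory rule, and 1037 met a secretory rule, 7 of which also passed the Fabp1 threshold and were left out. The cells were selected on measured values of these genes, so their levels in the selected cells are given as a description and no test of them is used.

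The organoids came from wild-type BALB/c mice and were grown from crypts with EGF, Noggin and R-spondin. For 4 days they were cultured alone (control), with 100000 allogeneic CD25high FoxP3-GFP+ Treg cells per well, with Treg cells and 10 µg/mL of a blocking antibody to IFNγ, to the receptor of IL-10 (IL-10R) or with both antibodies, or without T cells but with 0.25 ng/mL rIFNγ and 10 ng/mL rIL-10. Co-cultures also received 30 U/mL IL-2 and beads that engage CD3 and CD28, which the labels do not name for the groups without T cells, and plates were tilted so that T cells and organoids did not touch. Because both cytokines were always given together, their effects cannot be told apart, and the beads and IL-2 cannot be told apart from the Treg cells. Live EpCAM+ cells of all 6 groups carried a hashtag each and were pooled, so that every library held every group, and 3 experimental replicates were made. Replicates 1 and 2 consisted of 2 libraries each and replicate 3 of 1.

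Enterocytes cover the villus. They take up sugars, amino acids, lipids and bile acids through a brush border of microvilli, pack dietary fat into chylomicrons, and detoxify food compounds. They arise from crypt stem cells by way of cycling progenitors and lose cycling genes as they mature. IFNγ binds a receptor of IFNGR1 and IFNGR2 that signals through JAK kinases and STAT proteins, which turn on transcription factors such as IRF1 and CIITA, which in turn drive the genes of antigen presentation. The IL-10 receptor pairs the ligand-binding chain IL10RA with the shared chain IL10RB and signals mainly through STAT3.

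Genes that the rule did not use varied with the Fabp1 level of a cell. In the 104 cells just above the threshold, with 50 to 60 UMIs of Fabp1 per 10000, sucrase-isomaltase (Sis) stood at 16.7 UMIs per 10000, against 14.4 in the 140 cells just below it, with 40 to 50. It reached 27.7 in the 477 cells with at least 200. Apoa1, the main protein of high-density lipoprotein, went from 0.671 just above the threshold to 3.80 in the top range, and Fabp2 from 9.83 to 24.4, whereas the proliferation gene Mki67 went from 0.469 to 0.0945. The threshold cut a continuous range, with 140 cells just outside it and 104 just inside. Per 10000 UMIs over all selected cells, Sis stood at 21.9 against 2.26 in the other cells without a secretory rule, the bile pigment exporter gene Abcc2 at 4.23 against 0.28, the transcription factor gene Creb3l3 at 1.80 against 0.0763 and the C-type lectin gene Reg1 at 3.56 against 0.113. Lgr5, the marker of stem cells, stood at 0.0204 against 0.624. The label of mature enterocytes thus held for these markers, but lactase (Lct) and adenosine deaminase (Ada), which mark villus enterocytes, had a UMI in only 4.47% and 5.02% of the cells, and Ada in 31.9% of the other cells.

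**Figure D1:**
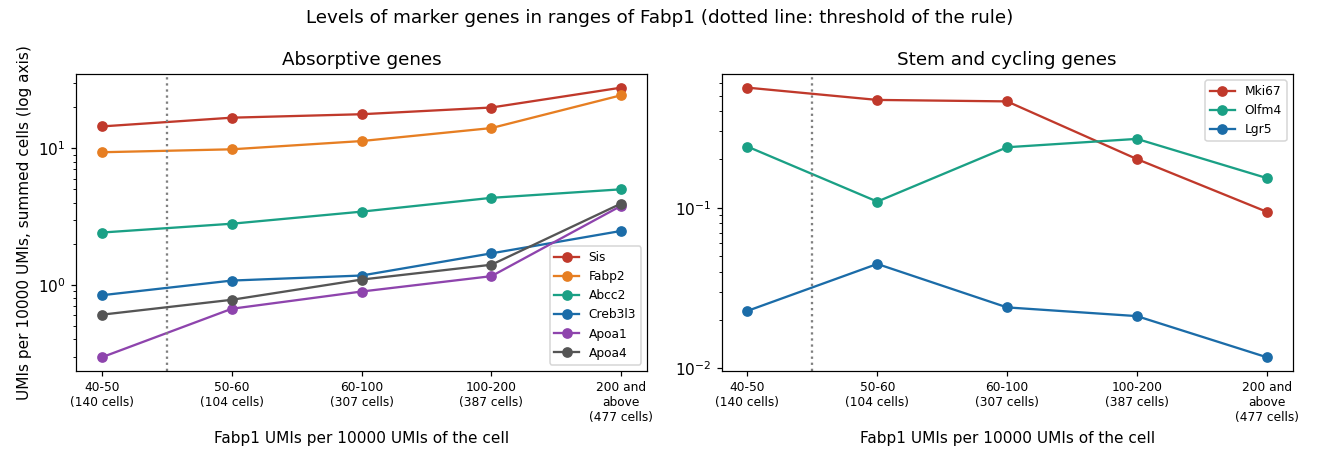
UMIs per 10000 (vertical, log axis) of absorptive genes (left) and of stem and cycling genes (right) in cells grouped by their own Fabp1 level (horizontal); each point sums the cells of a range, and the dotted line marks the threshold of 50. Sis went from 14.4 below the threshold to 27.7 in the top range, and Mki67 from 0.560 to 0.0945.

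T cell markers were near 0 in all sums but 1. A list of 16 T cell markers summed to 228 UMIs among the 49536300 UMIs of the enterocytes, the most abundant being Ctla4 with 85 UMIs, and Ifng was at 0. The summed level of the list lay between 0.00590 and 0.0323 per 10000 UMIs in 17 of the 18 sums of group and replicate and at 0.718 in the sum of Treg plus anti-IL-10R in replicate 3. There, a single cell with 111 UMIs of Fabp1 per 10000 held 93 UMIs of Cd3d, Cd3e, Cd3g, Trac, Trbc1, Trbc2 and Ptprc, which was 98.9% of the UMIs of these genes in the enterocytes of its group, and control enterocytes held 0. Without this cell, the number of genes past the threshold in each of the 9 comparisons of groups differed by at most 4. Stem cell markers summed to between 0.484 and 1.96 per 10000 and cycling markers to between 3.27 and 10.8. The most abundant of the latter, Hmgb2, stood at 2.84 per 10000 against 19.9 in the other cells without a secretory rule, and the goblet cell gene Spink4 at 1.02 against 148 in the cells that met a secretory rule. Between 9 and 24 cell barcodes were shared by pairs of libraries.

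Their share was 10.2%, 8.88% and 13.0% of the control cells in replicates 1 to 3, and 10.7% ± 2.12 on average (SD, n = 3). It was 12.8% ± 0.944 with Treg cells, 10.0% ± 2.63 with added anti-IFNγ, 10.5% ± 2.57 with added anti-IL-10R, 10.1% ± 0.919 with both antibodies, and 12.8% ± 4.38 with rIFNγ plus rIL-10. The share with Treg cells exceeded that of control in 3 of 3 replicates, by 2.12 percentage points on average (p = 0.25 in a two-sided exact permutation test that flips signs, which cannot go lower with 3 pairs, so that no difference could have been called). Without replicate 2 the difference was 1.03 points, and with cells chosen by Apoa1 in place of Fabp1 it was 0.574 points, higher in 2 of 3 replicates. With the cytokines the shares of 17.8%, 9.48% and 11.1% overlapped with control. The mean difference of 2.06 points (p = 0.75 in the same exact test) rested on replicate 1 and was -0.67 without it, and -0.51 with cells chosen by Apoa1. The cells chosen by Apoa1, with a threshold of only 0.262 UMIs per 10000, also numbered 1275. Of these, 736 were among the cells chosen by Fabp1. The median Fabp1 level of control enterocytes was 112, 153 and 212 per 10000 in replicates 1 to 3. The median depth was 37948 UMIs per enterocyte in control, 36897 with Treg cells and 40439 with the cytokines, and the median mitochondrial share lay between 4.92% and 5.40% in all 6 groups.

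In the enterocytes, UMIs of both receptor chains for IFNγ were found, but of the receptor for IL-10 only those of the shared chain. Ifngr1 had at least 1 UMI in 97.3% of them, Ifngr2 in 96.4% and Il10rb in 79.5%. Il10ra, which encodes the chain that binds IL-10, had a UMI in 0 of 1275 cells, which limits the share of cells with a UMI to 0.235% (counting error only) but not the share of cells that express the gene, and 2 UMIs in the 9599 other cells. Ifngr1 measured 132, 134 and 138 CPM (counts of a gene scaled to the TMM-adjusted size of its sum) in the control sums of replicates 1 to 3 and 111, 132 and 126 CPM with the cytokines, lower without overlap, by a log2 fold change of -0.13 ± 0.10 (SE) that did not pass the test (adjusted p = 0.36). Il10rb measured 39.4, 44.8 and 48.3 CPM in control and 49.4, 53.5 and 55.6 CPM with the cytokines, without overlap (log2 fold change 0.27, adjusted p = 0.12).

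For the comparisons of groups, the UMIs of all enterocytes of a group and replicate were summed, which gave 18 sums of 37 to 128 cells and 1548069 to 4820151 UMIs. All 10098 genes that passed a filter on low counts were tested with edgeR's quasi-likelihood test, with the replicate as a block and p-values adjusted by Benjamini-Hochberg. In such sums a change in RNA per cell and a change in the make-up of the cells cannot be told apart. The p-values measure the spread between these 3 replicates.

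Stimulation with rIFNγ plus rIL-10 changed 2418 genes at an adjusted p below 0.05, which is 23.9% of the genes tested, with 1292 higher (12.8%) and 1126 lower (11.2%). Cd74, Psmb8, Igtp, Fas and Krt20 were among the genes that rose, and Reg1, Fos and Rdh7 among those that fell. Without replicate 1 the count was 792, without replicate 3 it was 1257, and without the replicate block it was 691. Over all genes tested, the median log2 fold change was -0.00354, so the lists below are set against a median near 0.

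The class II pathway, which displays peptides to CD4 T cells, rose by large fold changes. Of its 12 genes, 10 passed the filter (2 of them only through the cytokine sums), and 9 of the 10 rose, with a median log2 fold change of 7.82. Of the other 8, 7 rose. Cd74, the invariant chain that guides class II molecules, measured 2.51, 3.89 and 3.92 CPM in control and 1061, 1262 and 1641 CPM with the cytokines. The rise was 9.13 ± 0.82 (log2 fold change ± SE, adjusted p = 8.51e-08), and the lowest stimulated sum stood far above the highest control sum. H2-Ab1, the beta chain of the class II molecule I-A, went from 1.08, 2.34 and 1.31 CPM to 278, 299 and 429 CPM (7.95 ± 0.71, adjusted p = 7.61e-08). The exception was Ifi30, a lysosomal thiol reductase, which fell by 0.28 on the log2 scale (adjusted p = 0.017) although its sums overlapped.

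The class I pathway, which displays peptides to CD8 T cells, rose as a whole. All 22 genes of the list were tested (2 passed the filter only through the cytokine sums) and 22 rose, with a median log2 fold change of 1.69, or 1.66 without these 2. Psmb8, a catalytic subunit of the immunoproteasome, went from 16.1, 13.2 and 31.3 CPM in control to 530.3, 375 and 869.7 CPM (4.92 ± 0.33, adjusted p = 3.66e-09). Tap1, a subunit of the pump that carries peptides into the endoplasmic reticulum, went from 2.15, 2.72 and 4.57 CPM to 104, 49.5 and 95.2 CPM (4.79 ± 0.36, adjusted p = 9.71e-09). Groups did not overlap for either gene. Psme1, a proteasome activator that was already abundant, rose by 1.64 ± 0.11, from 185, 205 and 225 CPM to 611, 595 and 708 CPM.

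Transcription factors of the interferon pathway rose with them. Irf1 measured 14.0, 10.1 and 9.14 CPM in control and 250.5, 171 and 241 CPM with the cytokines (4.29 ± 0.29, adjusted p = 3.66e-09). Irf8, a factor best known from myeloid cells, went from 38.4, 35.0 and 35.3 CPM to 679, 302 and 495 CPM. In all, 10 of 16 tested genes of interferon signaling rose and 0 fell (median 1.61), Socs1, the feedback inhibitor of JAK kinases, among them at 4.39 ± 0.66. Without 1 gene that passed the filter only through the cytokine sums, 9 of 15 rose (median 1.43). Of the genes of IL-10 and STAT3 signaling, 3 of 10 rose (Stat3 by 0.77, Pim1 by 0.88 and Ifnlr1 by 0.83 on the log2 scale) and the kinase gene Pim3 fell by 1.45, with a median of 0.36.

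Among interferon-induced GTPases, which attack intracellular microbes, 6 of 19 genes passed the filter (2 only through the cytokine sums), and these 6 rose, with a median log2 fold change of 7.55, or 6.62 with Irgm2 at its lower bound. Since the other 13 genes were not tested and these 2 entered through the group in which they were high, the count is a description, and without them 4 of 4 rose (median 7.64). Igtp measured 0.359, 0.389 and 1.31 CPM in control and 714, 168 and 477 CPM with the cytokines (9.50 ± 0.93, adjusted p = 2.77e-07). Irgm2 had 0 UMIs in control and 696 with the cytokines and was at least 175-fold higher (against a floor of 3 UMIs over the group). Iigp1 had 1 UMI in control and 1408 with the cytokines. The chemokine genes Cxcl9 and Cxcl10 and the tryptophan-degrading enzyme gene Ido1, which are known as interferon targets in many cells, had only 3, 9 and 3 UMIs in all 1275 enterocytes.

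**Figure D2:**
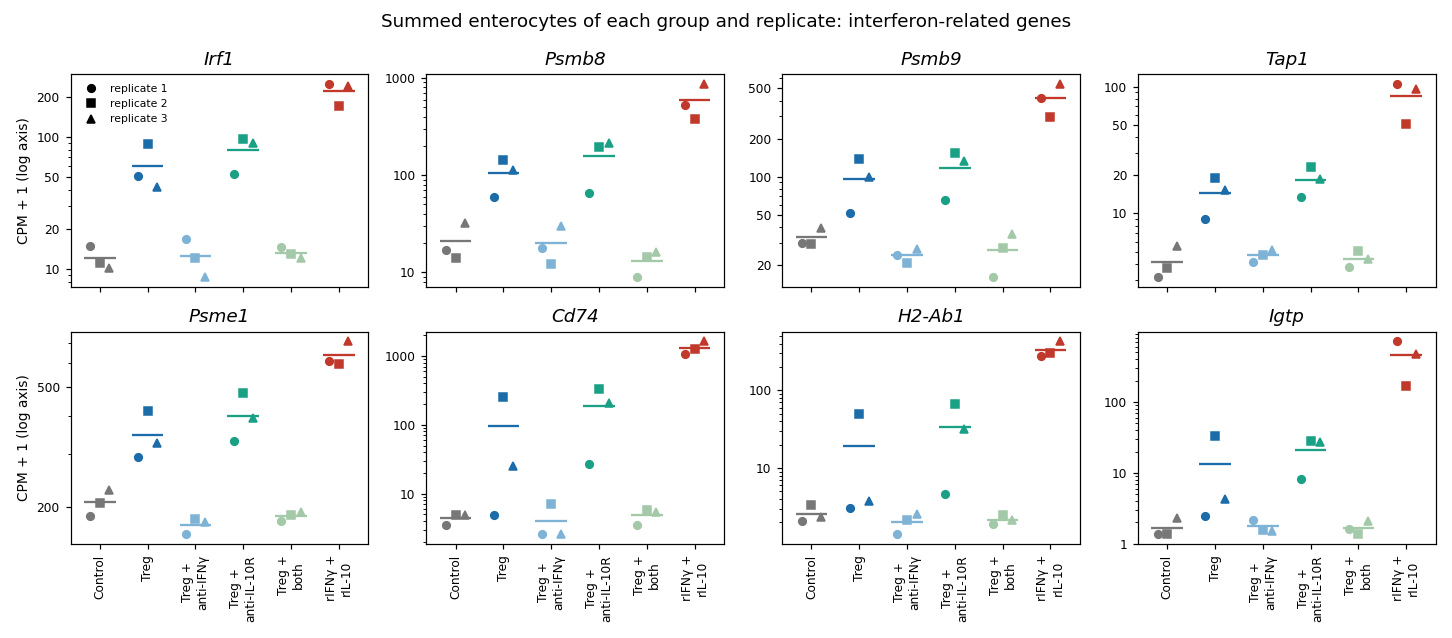
CPM + 1 (vertical, log axis) of 8 genes in the summed enterocytes of each of the 6 groups (horizontal); symbols are the 3 replicates and lines the group means. In all 8 genes the 3 sums with rIFNγ plus rIL-10 lay above every control sum, as with Cd74 at 1061 to 1641 CPM against 2.51 to 3.92.

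The start sites of some of these genes hold letters that STAT and IRF factors are known to bind. Windows from 250 bases before to 50 bases after the start of each gene (RefSeq, GRCm38.p6) were searched on both strands for TTCNNNGAA, the form of the gamma-activated site bound by STAT proteins, and for GAAANNGAAA, a form of the interferon-stimulated response element bound by IRF factors. The 2 patterns can overlap by their GAA. Of 32851 windows, 8.30% held TTCNNNGAA and 3.44% held GAAANNGAAA, and counted by gene, 9.55% and 3.99% of 27025 genes did. Each list was counted over all its genes with a window, including genes that were not tested or did not rise. Of the 11 GTPase genes with a window, 6 held TTCNNNGAA and 10 held GAAANNGAAA. The class I list had 1 and 5 of 19 genes, the class II list 1 and 1 of 9, the interferon signaling list 3 and 3 of 12, the cell death list 3 and 1 of 17 and the xenobiotic list, most of whose genes fell, 1 and 2 of 37. These matches describe letters and show no binding. Of 17 genes named for the largest rises, 14 had a window, of which 5 held TTCNNNGAA and 4 held GAAANNGAAA. Reg3b, which fell with the cytokines, held TTCNNNGAA 129 bases before its start. The stretch shown for Igtp also holds TTCNNNGAA, left in lower case, 45 bases before the start. The stretches are shown for 4 genes that rose with the cytokines, with the letters of the pattern named beside them in capitals, all on the strand of the gene. The first lies at chr17:34198078-34198126, 97 bases before the start, the second at chr11:53769904-53769952, 90 bases before, the third at chr11:58199502-58199551, 34 bases before, and the fourth, which holds the pattern on the opposite strand, at chr15:77476976-77477025, 51 bases before.
Psmb8, TTCNNNGAA: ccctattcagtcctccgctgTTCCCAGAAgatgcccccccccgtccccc
Irf1, TTCNNNGAA: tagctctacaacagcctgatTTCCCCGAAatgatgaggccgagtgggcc
Igtp, GAAANNGAAA: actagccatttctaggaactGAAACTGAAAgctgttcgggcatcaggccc
Apol10a, GAAANNGAAA: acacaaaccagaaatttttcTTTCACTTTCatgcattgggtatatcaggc

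Genes of cell death rose as well. Of 19 tested genes, 14 rose and 1 fell, with a median log2 fold change of 0.79. Without 1 gene that passed the filter only through the cytokine sums, 13 of 18 rose. The death receptor gene Fas went from 12.6, 12.1 and 12.4 CPM to 95.9, 41.4 and 74.3 CPM (2.50 ± 0.29), and Tnfsf10, which encodes the death ligand TRAIL, from 4.66, 3.11 and 3.27 CPM to 65.8, 16.0 and 43.8 CPM (3.40 ± 0.35). Neither gene had overlapping groups. The gene that fell was Casp4, an inflammatory caspase that senses lipopolysaccharide, by 1.56 on the log2 scale. Without replicate 1, 7 of the 19 genes rose, and without the block, 8.

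Many genes of the brush border rose, by smaller amounts. Of 24 structural genes, 15 rose and 0 fell (median 0.39), and of 18 enzymes, 10 rose and 2 fell (median 0.36). Krt20, the keratin of mature villus cells, measured 55.2, 37.0 and 36.6 CPM in control and 282, 131 and 272 CPM with the cytokines (2.36 ± 0.22, adjusted p = 1.65e-07). Sis, which splits sucrose, measured 2372, 1342 and 1531 CPM and then 4140.4, 2014 and 3684 CPM (0.91 ± 0.14, adjusted p = 9.60e-05). It was higher in 3 of 3 replicates, but its lowest stimulated sum lay below the highest control sum. The peptidase genes Mme and Mep1a fell by 1.36 and 1.69 on the log2 scale. Without the replicate block, 7 structural genes and 2 enzymes rose, and without replicate 1, 9 and 5.

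Uptake genes differed among themselves. Of 24 transporters, 7 rose and 2 fell. Of all genes tested, 12.8% rose and 11.2% fell, so the 2 falls are not read as a trait of transporters. The fructose transporter gene Slc2a5 went from 49.5, 37.0 and 49.0 CPM to 156, 62.2 and 158 CPM (1.42 ± 0.21), and Slc51b, a subunit of the basolateral bile acid exporter, from 22.2, 12.5 and 32.0 CPM to 109, 35.0 and 98.6 CPM (1.87 ± 0.25). The neutral amino acid transporter gene Slc6a19 and the chloride exchanger gene Slc26a3 fell by 0.69 and 0.46 on the log2 scale. Of 24 genes of lipid uptake and chylomicrons, 8 rose and 0 fell, the cholesterol-esterifying Soat2 most (1.67 ± 0.16), from 25.1, 27.2 and 17.0 CPM to 90.3, 58.6 and 78.5 CPM. Car4, a carbonic anhydrase anchored to the apical membrane, had 2 UMIs in control and 1125 with the cytokines, a ratio of 424 (95% counting interval 117 to 3504). Genes of fatty acid oxidation (5 rose and 6 fell of 29), of cholesterol synthesis (3 and 4 of 24), of mTORC1 and growth (5 and 6 of 27) and enterocyte transcription factors (4 and 5 of 28) had medians of -0.00359, 0.02, 0.15 and -0.05. Given the shares of all genes above, these counts are not read as results about the lists. In the first and last of them, 1 gene passed the filter only through the cytokine sums. Without it, the counts were 5 and 5 of 28 (median 0.000377) and 4 and 5 of 27 (median -0.07). Among the transcription factors, Hnf4g rose by 0.50, while Cdx1 and Ppara fell by 0.65 and 0.45.

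Genes that process foreign compounds and retinoids were lower. Of 38 tested genes, 25 fell and 2 rose, with a median log2 fold change of -0.67. Rdh7, a retinol dehydrogenase, measured 103, 92.6 and 172 CPM in control and 16.0, 26.0 and 28.5 CPM with the cytokines (-2.33 ± 0.24, adjusted p = 7.00e-07). Ugt2b5, which joins glucuronic acid to its substrates, measured 114, 130.4 and 242 CPM and then 24.0, 60.1 and 50.0 CPM (-1.79 ± 0.22, adjusted p = 6.87e-06). Cyp3a11, a cytochrome P450 with many drug substrates, measured 30.5, 26.1 and 22.9 CPM and then 2.45, 5.13 and 6.95 CPM (-2.66 ± 0.38). Groups did not overlap for any of the 3 genes. The 2 that rose were Cyp3a13 by 1.06 and Ces2c by 0.34. With a Fabp1 threshold of 100, 25 of the 38 fell as well, without replicate 1 it was 16, and without the replicate block 14.

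Outside the lists, the largest falls included Fos and Fosb. Fos measured 537, 312 and 560.3 CPM in control and 18.2, 106 and 66.7 CPM with the cytokines (-2.81 ± 0.38, adjusted p = 2.03e-05), and Fosb fell by 2.81, from 40.5, 12.1 and 53.5 CPM to 1.33, 9.36 and 2.08 CPM. Both encode subunits of the transcription factor AP-1. Cfhr2, a complement factor H-related gene, went from 66.3, 63.0 and 59.4 CPM to 10.0, 12.1 and 9.72 CPM (-2.55 ± 0.18, adjusted p = 6.09e-09). Gda, guanine deaminase, rose from 4.66, 5.06 and 1.31 CPM to 248, 65.5 and 103 CPM (5.13 ± 0.49).

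Reg1, a marker of these cells, had the largest fall by the naming rule. It measured 818, 266 and 1275 CPM in control and 40.3, 13.3 and 61.1 CPM with the cytokines (-4.38 ± 0.37, adjusted p = 3.77e-08). A few cells carried most of it, since the 10% of cells with the most Reg1 held 74.2%, 95.3% and 74.6% of its UMIs in the 3 control sums. Of 14 antimicrobial and inflammatory genes, 6 fell, among them Reg3a, Reg3b and the mucosal antibody receptor gene Pigr, and 1 rose, Lypd8, which keeps flagellated bacteria from the epithelium, by 0.62. Of the 6 enterocyte markers, Sis rose, Reg1 and Abcc2 fell (Abcc2 by 0.61, a call lost without the block and without replicate 1 or 3), and Apoa1 (-0.30, adjusted p = 0.58) and Creb3l3 (0.23, adjusted p = 0.14) did not pass the test. Fabp1, on which the cells were selected, differed by -0.17.

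Markers of less mature and of other cells moved in the same comparison. Of 15 cycling markers, 6 fell (median -0.73), Top2a from 54.1, 50.2 and 29.4 CPM to 11.6, 19.3 and 23.6 CPM among them, but 0 did without replicate 1 or without the block, and 0 of 14 (median -0.02) with a Fabp1 threshold of 100. Of 9 stem cell markers, 2 of which passed the filter only through the cytokine sums, 3 fell (Smoc2, Slc12a2 and Cdk6) and 0 rose, with a median log2 fold change of -0.21, or -0.84 without these 2. Olfm4 differed by 1.28 and did not pass the test (adjusted p = 0.13). Of the goblet markers that the rule had not used, 1 was tested, Spink4, and it fell by 1.03 on the log2 scale. The part of these cells in the other results was not tested.

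**Figure D3:**
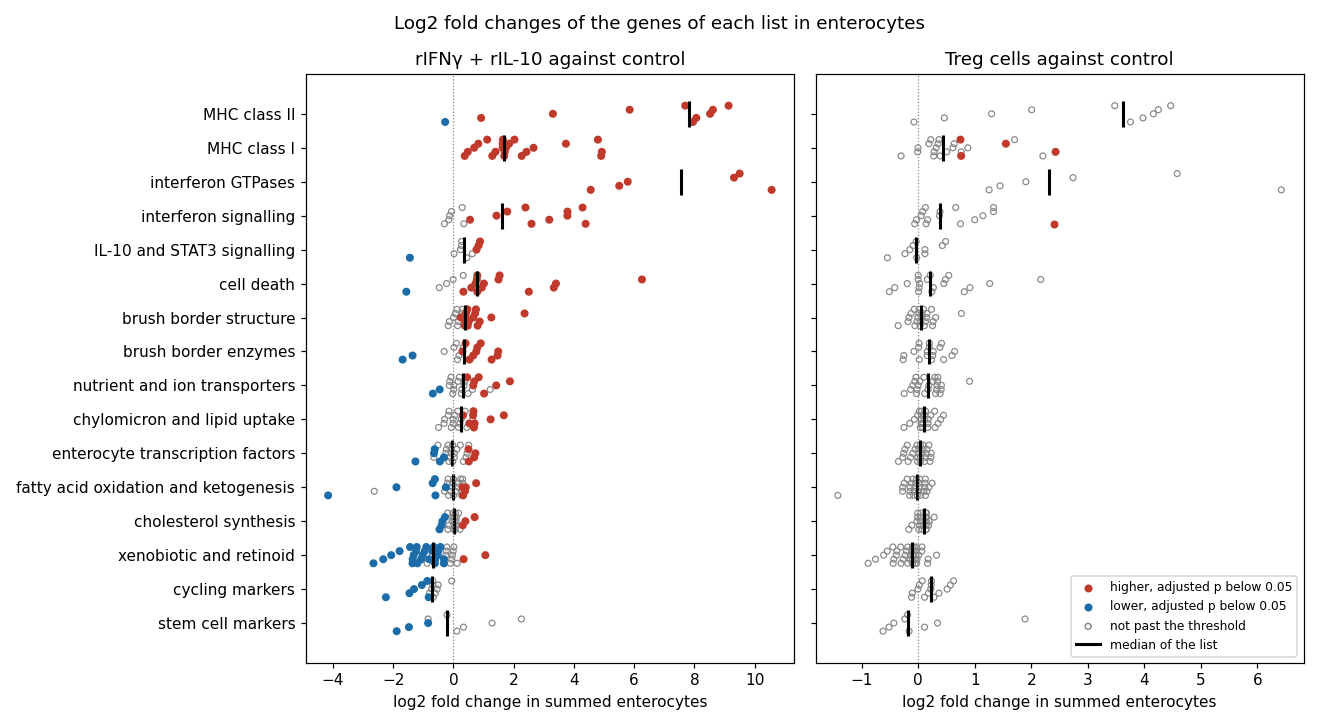
Log2 fold changes (horizontal) of the tested genes of 16 lists (vertical) in summed enterocytes with rIFNγ plus rIL-10 (left) or Treg cells (right) against control; each point is a gene, filled where the adjusted p was below 0.05, and the black bar is the median of a list. Class II genes lay around a median of 7.82 with the cytokines, and genes of xenobiotic metabolism around -0.67.

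**Figure D4:**
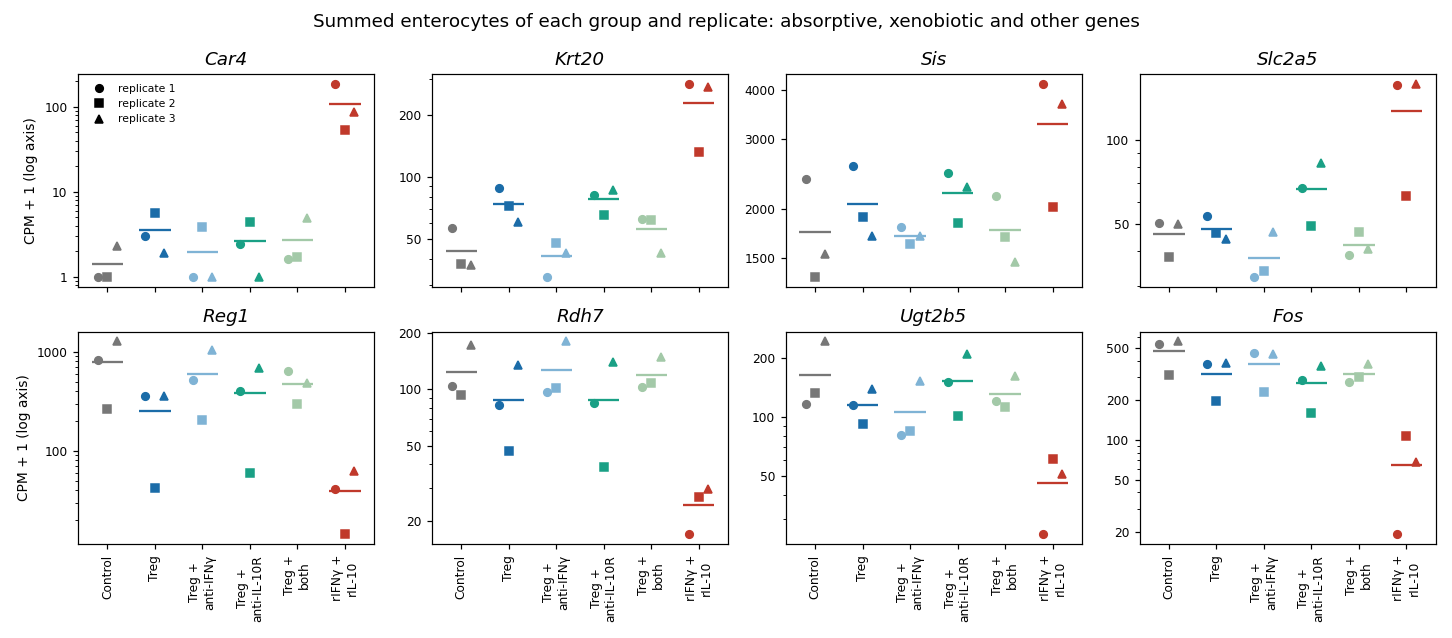
CPM + 1 (vertical, log axis) of 8 genes in the summed enterocytes of each group (horizontal), with symbols for the 3 replicates and lines for group means. Krt20 and Slc2a5 were higher in all 3 sums with rIFNγ plus rIL-10 than in any control sum, and Reg1, Rdh7, Ugt2b5 and Fos were lower.

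Co-culture with Treg cells changed 8 genes (0.0792% of the 10098 tested), 7 of them higher. Irf1 measured 49.6, 87.3 and 40.8 CPM with Treg cells, above the 9.14 to 14.0 CPM of control (2.40 ± 0.32, adjusted p = 0.0017). Psmb8 measured 58.2, 142 and 112 CPM (2.43 ± 0.34, adjusted p = 0.0017), also without overlap. The others that rose were the immunoproteasome gene Psmb9 (1.55), the proteasome activators Psme1 (0.75) and Psme2 (0.76), the apolipoprotein L gene Apol10a (3.16) and the galectin gene Lgals9 (0.59). Reg1 fell by 1.79 on the log2 scale, to 357, 41.3 and 356 CPM, lower than control in 3 of 3 replicates although the groups overlapped. Of the 22 class I genes, 4 rose (median 0.44), and of the 10 class II genes 0 passed the test (median 3.61). Cd74 differed between replicates, at 3.84, 256 and 24.1 CPM (4.46 ± 0.96, adjusted p = 0.11), and H2-Ab1 likewise at 2.07, 49.4 and 2.78 CPM. Without replicate 3, 0 genes passed the threshold, without replicate 1 it was 14, and without the replicate block 1.

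With anti-IFNγ, Psmb8, Irf1 and a few other genes of antigen presentation were lower than with Treg cells alone, 6 of 22 class I and 2 of 10 class II genes. With both antibodies it was 5 of 22 and 0 of 10. With Treg cells plus anti-IFNγ, 0 genes differed from control in edgeR's test (0.0%) and in DESeq2, with 603 at an unadjusted p below 0.05, and with both antibodies 0 differed as well (0.0%), with 386 at an unadjusted p below 0.05 and 0 by DESeq2. Without the filter on low counts, 30 genes differed from control with anti-IFNγ and 18 with both antibodies. Without replicate 2 these counts were 0 and 1. Against Treg cells alone, anti-IFNγ changed 20 genes (0.198%), 18 of them lower, and both antibodies changed 11 (0.109%), 10 of them lower. Psmb8 measured 16.6, 11.2 and 28.9 CPM with anti-IFNγ and 7.98, 13.5 and 15.1 CPM with both antibodies, each below all sums with Treg cells alone (-2.55 ± 0.34, adjusted p = 4.84e-04, and -3.11 ± 0.36, adjusted p = 1.64e-04). Irf1 fell by 2.36 and 2.27 on the log2 scale against Treg cells alone, and Adh6a, an alcohol dehydrogenase, by 2.86 and 2.49. Cd74 fell by 4.57 with anti-IFNγ (adjusted p = 0.039), to 1.59, 6.04 and 1.55 CPM, while with both antibodies, at 2.46, 4.75 and 4.46 CPM, the difference from Treg cells alone did not pass the test (-4.27, adjusted p = 0.068). Reg3b, an antibacterial lectin, was higher in both comparisons, with 70.6, 3.62 and 12.5 CPM with Treg cells, 150.2, 33.4 and 190.5 CPM with anti-IFNγ (2.28 ± 0.37, adjusted p = 0.0040) and 182, 11.0 and 145 CPM with both antibodies (1.89 ± 0.37, adjusted p = 0.037). Its sums overlapped between all 3 groups. Reg1 measured 515, 202 and 1052 CPM with anti-IFNγ (1.36 against Treg cells, adjusted p = 0.075). The comparisons share their Treg or control sums. Without the replicate block both counts against Treg cells were 2, and without replicate 3 they were 6 and 3.

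With anti-IL-10R, some genes of antigen presentation were higher than in control. Against Treg cells alone, 0 genes differed in edgeR's test (0.0%) and in DESeq2, with 324 at an unadjusted p below 0.05. Without the filter on low counts 51 differed, without replicate 1 it was 2 and without replicate 2 it was 1. Against control, 23 genes differed (0.228%), 22 of them higher. Psmb8 measured 64.6, 193 and 214 CPM (2.94 ± 0.34, adjusted p = 6.53e-05) and Irf1 51.1, 95.9 and 88.3 CPM (2.77 ± 0.32, adjusted p = 6.53e-05). Cd74 measured 25.9, 331 and 204 CPM, above every control sum (5.65 ± 0.90, adjusted p = 0.0035). Tap1 rose by 2.57 and Adh6a by 2.15 on the log2 scale. Of the lists, 8 of 22 class I genes, 3 of 10 class II genes and 3 of 16 genes of interferon signaling rose. Reg1, at 398, 58.7 and 678 CPM, did not pass the test against control (-1.26, adjusted p = 0.11). Without replicate 3, which holds the cell with T cell UMIs, 5 genes differed from control, and without the block 7. With only that cell left out, it was 24. Counts against control with and without anti-IL-10R share the control sums, and the direct comparison of the 2 groups does not show that they act alike. Against Treg cells alone, Psmb8 differed by 0.51, Irf1 by 0.36 and Cd74 by 1.19 on the log2 scale (adjusted p = 1.00 for each).

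rIFNγ plus rIL-10 and Treg cells differed in 1614 genes (16.0%), 912 higher (9.03%) and 702 lower (6.95%) with the cytokines, at the doses used. All 22 class I genes, 9 of 10 class II genes and 12 of 24 structural brush border genes were higher with the cytokines, and 18 of 38 genes of xenobiotic metabolism were lower. In the class I and class II lists, 2 genes each passed the filter only through the cytokine sums. The counts of these 2 lists are therefore a description. Psmb8 was higher by 2.50 ± 0.26 and Irf1 by 1.88 ± 0.22 on the log2 scale, with all 3 stimulated sums above all 3 co-cultured sums. Krt20 was higher by 1.60 ± 0.20 and Car4 by 5.04 ± 0.48. Reg1 was lower by a log2 fold change of -2.59 ± 0.37 and Fos by -2.24 ± 0.38. Without replicate 1 the count was 286, without replicate 3 it was 313, and without the block 270.

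The spread of the response over single cells was measured with every enterocyte thinned to 10000 UMIs. Cd74 then had a UMI in 4.38% of control enterocytes (mean of 3 replicates, range 3.28 to 5.41), a level that was not told apart from free RNA in the pooled libraries, and in 99.7% with the cytokines. Without thinning, the shares were 9.84%, 10.8% and 8.89% in control and 100% in each stimulated replicate. With Treg cells the share at equal depth was 1.20%, 51.6% and 19.3% in replicates 1 to 3, and with added anti-IL-10R it was 11.8%, 61.4% and 37.5%, so that replicate 1 was the lowest in both groups. With anti-IFNγ and with both antibodies the means were 4.46% and 4.75%. In replicate 2 with Treg cells, the 10% of cells with the most Cd74 held 40.8% of its UMIs, against 17.7% in the same replicate with the cytokines. Psmb8 was detected in 15.5% of control cells, 55.8% with Treg cells, 64.2% with added anti-IL-10R, 12.1% with anti-IFNγ, 11.4% with both antibodies and 98.5% with the cytokines. Irf1 went from 10.2% in control to 84.5% with the cytokines, and Reg1 from 41.1% to 5.55%. Unthinned, Psmb8 had a UMI in 41.0%, 33.8% and 48.9% of control cells and in 81.9%, 85.2% and 91.2% with Treg cells. No test was made on these shares, since the genes were chosen for their change in the same sums.

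**Figure D5:**
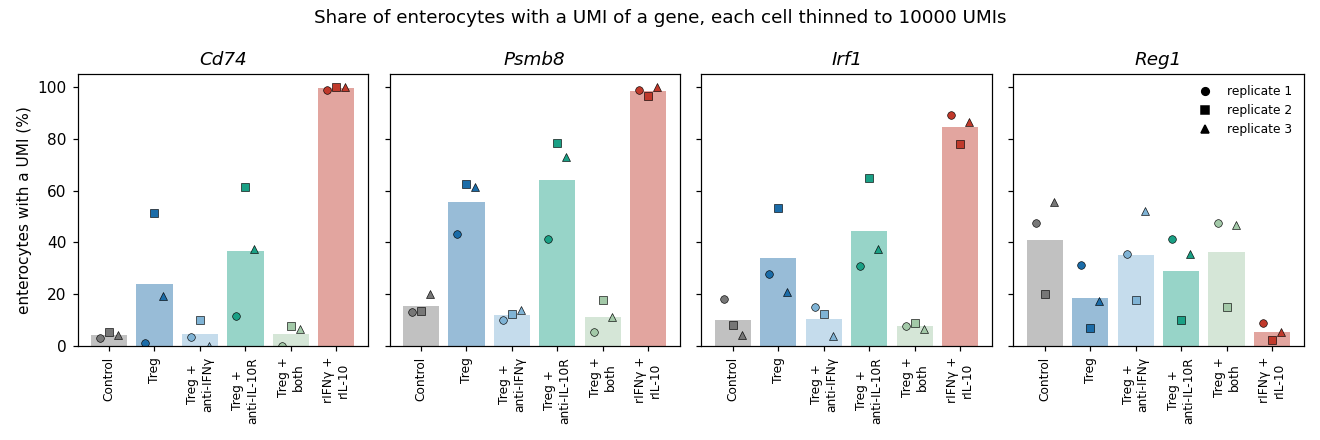
Share of enterocytes with at least 1 UMI of a gene (vertical, %) after every cell was thinned to 10000 UMIs, in each group (horizontal); bars are means and symbols the 3 replicates. Cd74 reached 99.7% with rIFNγ plus rIL-10 against 4.38% in control, and with Treg cells it spread from 1.20% to 51.6%.

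To see where enterocytes differed from the other cells of the same libraries, the response was compared with that of the 9599 cells that met neither the Fabp1 threshold nor a secretory rule. The test of this difference was added after the data had been seen, it covered 12699 genes, and the 2 classes stem from the same libraries. The replicate was a block within each class, and the 2 sums of a group and replicate entered as separate samples. Their pairing was not used, so the p-values do not measure the paired spread of the difference. For the cytokines, 542 genes (4.27%) responded differently, 131 with a higher log2 fold change in enterocytes and 411 with a lower one. Neither this count nor the counts by list below were recomputed in another setting. For Treg cells, 0 did (0.0%) in edgeR's test, with 507 at an unadjusted p below 0.05, and no other tool was run on this difference. Among the genes of the class I, class II, GTPase and interferon signaling lists, 0 differed: Cd74 changed by 9.08 in enterocytes and by 9.10 in the other cells. Creb3l3 changed by 0.22 in enterocytes and by 1.34 in the other cells (adjusted p = 0.038), and Abcc2 by -0.61 and 0.36 (adjusted p = 0.042). Ncl, a nucleolar protein of ribosome formation, changed by -0.72 in enterocytes and by 0.05 in the other cells (adjusted p = 9.14e-04), and the polyamine enzyme gene Odc1 by -0.45 and 0.18 (adjusted p = 0.028). By list, 2 genes of xenobiotic metabolism had a higher response in enterocytes and 6 a lower one, of 40 tested. The numbers were 0 and 4 of 29 for mTORC1 and growth (Ncl, Rps6, Npm1 and Odc1), 2 and 3 of 28 for enterocyte transcription factors, 2 and 0 of 25 for brush border structure (Eps8 and Ezr), 2 and 0 of 21 for cell death, 0 and 2 of 21 for antimicrobial genes, 1 and 1 of 9 for stem cell markers and 0 and 3 of 6 for the enterocyte markers. These 6 include Fabp1, on which the 2 classes were split, so its test is not read. The 3 were Reg1, Creb3l3 and Abcc2. All 3 were also higher in cells of the top Fabp1 range than in those just below the threshold. For them, a different response per cell and a shift of cells across the Fabp1 threshold cannot be told apart. In each other list at most 1 gene differed.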

How the data were processed

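Single-cell libraries of hashed organoid cells (10x 3′ chemistry) were used as deposited: the authors aligned reads and counted UMIs, and the deposited matrices hold raw counts of 5 libraries with 35985 cell barcodes. The submitters' processing notes name Cell Ranger 7.0.0, Seurat 4.0.5 and GRCm38/mm10. A further library, which the study left out, was not used here. Hashtags were assigned per library with HTODemux (Seurat 5.3.0, quantile 0.99), which gave 24320 singlets, 3387 doublets and 8278 negatives, and doublets and negatives were removed. No further doublet caller was run, and 1.64% to 6.97% of the singlets per library were estimated to be undetected doublets of 1 hashtag. Singlets were kept if they held 10000 to 90000 UMIs, 3000 to 10000 detected genes and no more than 8.5% of mitochondrial UMIs.

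UMIs of the enterocytes were summed per group and replicate, filtered with filterByExpr and tested with edgeR 4.0.16 (TMM, quasi-likelihood test, R 4.3.3) over all 6 groups with the replicate as a block. The code was tested on simulated data. DESeq2 1.42.0 was an alternative. All groups of a replicate were pooled in the same libraries, which pairs them. In all 45 pairs of groups within a replicate, deviations from the group means correlated by at least 0.154 (mean 0.365). Intervals, and floors of 3 UMIs, cover counting error only. Nothing in the labels says whether replicates came from separate mice. Promoters were taken from RefSeq (GRCm38.p6).

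The members and gene lists were chosen with earlier results of these data known. Named genes were the up to 10 that rose and 10 that fell most in cytokines and in Treg cells against control, and up to 5 per direction elsewhere, among genes past the threshold, changed alike in 3 of 3 replicates and with an average log2 CPM of at least 4. Up to 4 per list and direction, the 6 markers and the receptor chains were added. Cxcl9, Cxcl10, Ido1, Lct, Ada, Fabp2, Rps6, Npm1, Eps8, Ezr, Olfm4 and Pigr were named outside this rule, after their values were seen. Some items are not reported here.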

Additional observations from a re-analysis of the deposited data

Results flagged for a closer look

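The response to rIFNγ plus rIL-10 differed between enterocytes and the other cells without a secretory rule for 542 genes, and the named ones are given here by the difference of their log2 fold changes, enterocytes minus other cells (edgeR, adjusted over 12699 genes, a test added after the data were seen). Olfm4, a stem cell marker, differed by 2.52 (adjusted p = 0.020), with 11.6 CPM in control and 31.1 CPM with the cytokines in enterocytes, against 1039 and 459 CPM in the other cells. D5Ertd579e and Nudt5 differed by 1.97 and 1.96, both higher in enterocytes. Reg1 differed by -2.86 (adjusted p = 0.021), having fallen by 4.39 in enterocytes and changed by -1.53 in the other cells. Its level also varied with Fabp1, on which the classes were split, so a shift of cells across the threshold cannot be told apart from this. The cell cycle genes Cit, Esco2 and Hist1h1b differed by -3.28, -2.71 and -2.45. Their levels in enterocytes were low, at 4.89, 8.30 and 18.2 CPM in control and 0.533, 1.36 and 5.08 CPM with the cytokines. The part of these genes in a change of maturity within the Fabp1 range was not tested.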

How the results depend on the processing

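Sums held 37 to 128 enterocytes, which limits low genes, and counts moved with the replicates used. Leaving out 1 replicate gave 792 to 2463 changed genes for cytokines against control and 286 to 2070 against Treg cells, 0 to 14 for Treg cells against control, 5 to 30 for anti-IL-10R and 0 to 1 for both antibodies against control, and, against Treg cells, 6 to 19 for anti-IFNγ, 3 to 16 for both antibodies and 0 to 2 for anti-IL-10R. Without the replicate block, that is, ignoring the pairing, the counts were 691 and 270 for cytokines against control and Treg cells, 1 for Treg cells and 7 for anti-IL-10R against control, and 2 each for anti-IFNγ and both antibodies against Treg cells. DESeq2 called 14 genes for Treg cells and 35 for anti-IL-10R against control, and 21 for both antibodies and 38 for anti-IFNγ against Treg cells. Without the filter on low counts the numbers were 86 (Treg cells), 18 (both antibodies), 30 (anti-IFNγ) and 191 (anti-IL-10R) against control, and 115 (both antibodies), 201 (anti-IFNγ) and 51 (anti-IL-10R) against Treg cells. Sums per library with the library as the block, in which the 2 libraries of a replicate count as separate samples, gave 16 for Treg cells and 53 for anti-IL-10R against control, and 36 for both antibodies and 70 for anti-IFNγ against Treg cells. A Fabp1 threshold of 100 gave 1596 and 1003 for cytokines against control and Treg cells. Equal numbers of cells gave 41 for anti-IL-10R against control and 18 for both antibodies against Treg cells. Choosing cells by Apoa1, which kept 736 of the 1275 main cells, gave 4 for Treg cells and 10 for anti-IL-10R against control. The share difference for the latter was then -1.61 points. A stricter hashtag quantile gave 5 for Treg cells. The cause was not tested. Leaving out the cell with T cell UMIs was chosen after seeing the data. Of 116 named genes called for cytokines against control, 58 kept the call in every setting run, and of 8 for Treg cells, 0 did. No called value of these genes changed its sign in these 2 comparisons, and the named genes of the other 7 were not recomputed. The difference between enterocytes and other cells was tested in the main setting only. Uncalled share differences did change sign, for cytokines minus control from 2.06 to -0.67 points without replicate 1 and to -0.51 with Apoa1, and for anti-IL-10R minus control from -0.27 to 0.474 points with the Fabp1 threshold of 100, to 0.434 with the stricter hashtag quantile and to 0.353 without replicate 1. Leaving out 1 replicate also moved anti-IFNγ minus control from -0.717 to 0.0345 points and both antibodies minus control from -0.618 to 0.106.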
